A study of Mus musculus with 16 samples.

Results

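A set of 918 genomic regions carried an H3K27me3 island in all 3 libraries from 24-month-old mice and in neither of 2 libraries from 4-month-old mice. They are called old-only regions here, and they were chosen by their H3K27me3 islands alone. For this, the islands of 5 H3K27me3 lists (old replicates 1, 2 and 3 and young replicates 2 and 3) were merged wherever they overlapped or abutted, which gave 71865 regions. The old-only regions are 1.28% of these, and because the islands chose them, their H3K27me3 values are a description and carry no test. The comparison sets made in the same way were 1242 young-only regions (both young lists, no old list), 1683 regions in all 3 old and exactly 1 young list, and 5973 regions in all 5 lists.

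The study profiled histone methylation by chromatin immunoprecipitation and sequencing (ChIP-seq) in hematopoietic stem cells of C57BL/6 mice, sorted from bone marrow as SP-KSL-CD150+, at 4 months (young) and 24 months (old). The mice were wild type, per the series' description, and no treatment is given in the labels. There were 3 young and 3 old libraries for H3K27me3, 3 and 3 for H3K36me3 (young and old replicates 4, 5 and 6), and 2 and 2 for H3K4me3 (young and old replicates 7 and 8). Each library is labelled as a technical replicate with its own number of a biological replicate. How many animals were pooled, or which libraries share animals, is not given in the labels, so the tests below measure the spread between these libraries, which may be technical. No marker check of the sorted cells was made, because peak lists hold no expression and no gene annotation of the build of the files (mm9) was used.

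H3K27me3 is the mark that Polycomb repressive complex 2, through its catalytic subunits Ezh1 and Ezh2, places on nucleosomes of silent genes and their surroundings. Polycomb repressive complex 1 can bind it, and in stem cells the mark keeps lineage and developmental genes off, often over CpG-rich promoters that also carry H3K4me3 (bivalent promoters). H3K4me3 marks promoters that are active or poised, and H3K36me3 is laid down by Setd2 along gene bodies while they are transcribed, where it opposes Polycomb methylation.

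The 5 lists differed in how many islands they held, and this bears on every count below. Old replicate 2 and young replicate 2 held 17752 and 18741 islands, while the other 3 held 38609 to 47197. Covered length ran from 123 to 179 Mb. Young replicate 1, which the rule does not use, stood apart from the other H3K27me3 lists (46988 islands over 169 Mb, over only 16.7% of the regions that the other 5 lists share) and is described separately. Read depth is not given in the sources used here, so no interval for counting error can be attached to a list. Sample titles carry a number (16 to 21) with no explanation, and values are given within it where a number occurs at both ages.

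The old-only regions were mid-sized. Their length ran from 600 to 32200 bp with a median of 7800 bp, against 5000 bp for young-only regions, 16600 bp for regions in all 5 lists and 3000 bp for all merged regions. Together they spanned 7.75 Mb. Only 9 regions reached 20 kb and 2 were under 2 kb.

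Each old library filled only a part of the merged span. In old replicate 1 the covered length per region had a lowest value of 400 bp, a median of 3600 bp and a highest of 15800 bp. In old replicate 2 these values were 400, 5800 and 24200 bp. In old replicate 3 they were 200, 3400 and 22600 bp. Old replicate 2 thus had the longest coverage, and it was the longest of the 3, without a tie, in 599 regions (65.3%), against 159 for old replicate 1 and 129 for old replicate 3. It had 1 unbroken island in 886 regions, while old replicates 1 and 3 had 1 island in 761 and 721. The longest of the 3 lengths was a median of 2.35 times the shortest, and at least 3 times the shortest in 313 regions (34.1%).

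The 3 old lists did not always mark the same bases. The part of a region under islands of all 3 lists at once had a median of 1400 bp, or 18.8% of its length. In 181 regions (19.7%) no base lay under all 3, so that neighbouring islands had been chained into a single region. At the other end, 83 regions had at least 50% of their length under all 3. The longest shared stretch was 9600 bp, in the region on chromosome 13 at 79582801 to 79596600, where the old libraries covered 11800, 11200 and 12000 bp. The largest shared part, 90.5%, was in the region on chromosome 8 at 28206801 to 28211000, with 4000, 3800 and 4200 bp. These examples were picked after their values were seen.

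**Figure D1:**
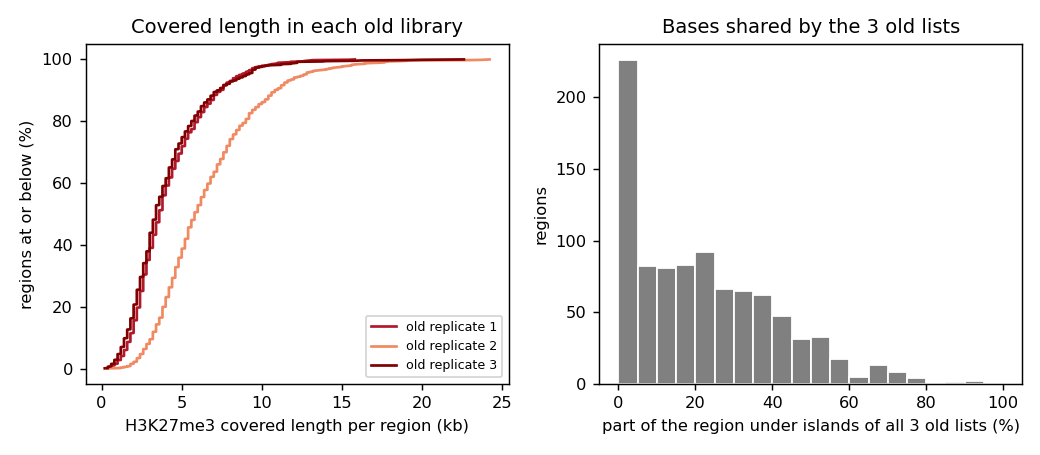
Left, the cumulative share of the 918 old-only regions (percent) by H3K27me3 covered length (kb) in each old library; right, the number of regions by the part of their length (percent, bins of 5) under islands of all 3 old lists. Old replicate 2 lies to the right of the other 2 libraries, and the tallest bar, at the left end, includes the 181 regions with no shared base.

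The region with the most H3K27me3 by mean covered length lay on chromosome 5 at 128374201 to 128406400. Old replicates 1, 2 and 3 covered 15400, 23000 and 15800 bp of it, a mean of 18067 ± 4277 bp (SD, n = 3), and young replicate 1 covered 0 bp. All 3 old libraries were high there, and its score percentile, the share of islands in the same list with a lower score, was 90.7, 90.8 and 81.8. The nearest islands of young replicates 2 and 3 were 7200 and 1200 bp away, and a region held by all 5 lists began 800 bp away, so this region borders on H3K27me3 that both ages had.

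The next 2 also lay on chromosome 5. That at 26471001 to 26498600 was covered over 7000, 23800 and 22600 bp, so that old replicate 1 was low, and no island of young replicate 2 or 3 was nearer than 7000 bp. That at 131500401 to 131526000 was covered over 4600, 17800 and 20000 bp, again with the lowest value in old replicate 1. On chromosome 8, the region at 10433601 to 10457800 was filled from end to end by 1 island of old replicate 2 (24200 bp) and held 6800 and 9800 bp of old replicates 1 and 3. It lay 26400 and 31400 bp from islands of young replicates 2 and 3. On chromosome 13, the regions at 81362401 to 81380800 and 65294201 to 65314200 were more even, with 10600, 17800 and 11200 bp in the first and 10200, 17600 and 9400 bp in the second.

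The remaining 4 of the 10 regions with the largest mean covered length were on other chromosomes. The region on chromosome 17 at 92878401 to 92901800 had 7600, 12000 and 19000 bp in old libraries, and here young replicate 1 covered 12800 bp, more than 2 of the 3 old libraries. That on chromosome 4 at 144242201 to 144264800 had 9600, 19200 and 8800 bp and an island of young replicate 3 at 800 bp. That on chromosome 11 at 40381001 to 40399200 had 7600, 16000 and 13800 bp and was 1412800 bp from the nearest region of all 5 lists. The region on chromosome 3 at 103414401 to 103434000 had 8400, 12400 and 16200 bp. No H3K4me3 peak of any library lay over these 10 regions, and the nearest H3K4me3 region held by all 4 libraries was 27279 bp away or farther. An H3K36me3 peak of 1 library, young replicate 4, covered 722 bp of the chromosome 17 region.

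**Figure D2:**
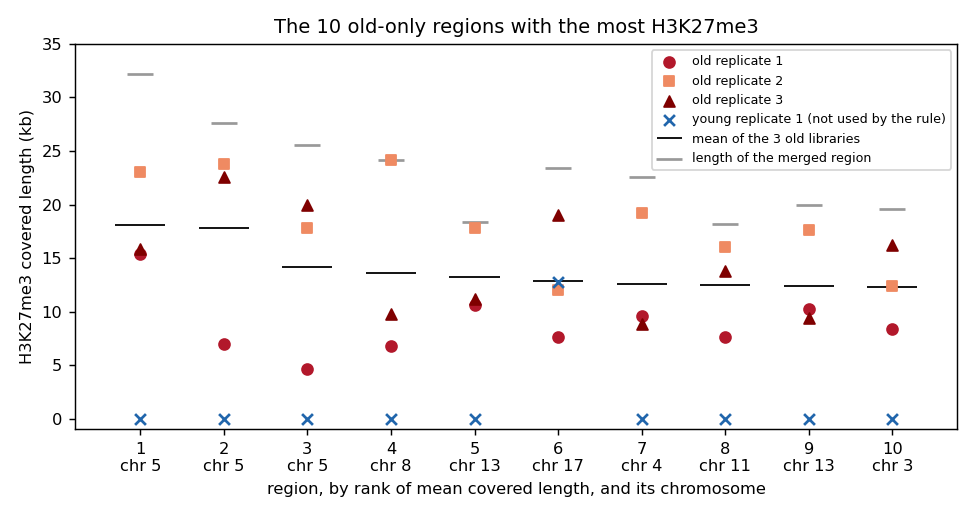
H3K27me3 covered length (kb) in the 10 old-only regions with the largest mean over the 3 old libraries, each labelled with its rank and chromosome; points are libraries, black lines the old mean, grey lines the length of the merged region. Young replicates 2 and 3 are at 0 by the rule; young replicate 1 is at 0 in 9 of the 10 and at 12.8 kb in rank 6.

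By score, the authors' own number for an island, the old-only regions stood somewhat above the middle in old replicates 1 and 3 and below it in old replicate 2. In all 3 old lists they stood below the regions that all 5 lists shared. The median percentile of the best island was 56.4, 35.2 and 61.3 in old replicates 1, 2 and 3, against 88.5, 77.9 and 90.8 for regions in all 5 lists. A score above the list median in all 3 old lists was found in 150 regions (16.3%). The region with the highest lowest-of-3 percentile was on chromosome 5 at 128282801 to 128299200, with percentiles of 82.1, 84.5 and 82.7 and covered lengths of 5800, 16400 and 9400 bp. It lay within 100 kb of the longest-covered region above, which came next in this order. The region on chromosome 4 at 121760401 to 121775600, with percentiles of 90.7, 78.1 and 79.2, held 11800, 14200 and 5400 bp and 1000 bp of young replicate 1. Its nearest island of young replicate 2 or 3 was at 28400 bp. That on chromosome 12 at 87659401 to 87675000 had percentiles of 79.7, 80.1 and 78.4, and the first of the chromosome 13 regions above had 81.1, 79.6 and 85.4.

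Absence from the young lists was often a matter of a short distance. The gap to the nearest island of young replicate 2 or 3 ran from 200 bp, the grid of the lists, to 1921200 bp, with a median of 7800 bp. In 362 regions (39.4%) such a young island lay within 5 kb, in 453 (49.3%) beyond 5 and up to 50 kb, and in 103 (11.2%) there was none within 50 kb. Young replicate 3, the longer list, was within 5 kb of 318 regions and young replicate 2 of 142. Young islands flanked 82 regions (8.93%) within 5 kb on both sides. A region held by all 5 lists lay within 5 kb of 129 (14.1%), and in 509 (55.4%) there was none within 50 kb. The most isolated region, on chromosome X at 61527201 to 61533000, held 4400, 2800 and 4600 bp in the old libraries and no island of young replicate 1. Covered length was similar at all distances: the mean over old libraries had a median of 4467 bp within 5 kb of a young island, 4533 bp at intermediate distances and 4267 bp beyond 50 kb.

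At the edge of the rule, the old covered lengths of members and non-members overlapped. An island of young replicate 2 or 3 lay 200 bp away from 13 members, and the 5 of these with the largest mean old coverage are named here, each next to young replicate 3. The first was the chromosome 16 region at 9048001 to 9063800, with 5800, 10800 and 6200 bp in the old libraries. Another, the chromosome 5 region at 109948801 to 109959200, held 7000, 8200 and 6200 bp. The chromosome 19 region at 42728001 to 42743000 held 1800, 15000 and 2400 bp, with no base under all 3 lists. The last 2 were the chromosome 4 region at 49363401 to 49373600 (7400, 4800 and 5400 bp) and the chromosome 13 region at 69488601 to 69497400 (6600, 8000 and 2800 bp). Just outside, the region on chromosome 8 at 110706601 to 110723400 had 6600, 13800 and 6200 bp in the old libraries and was left out for 200 bp of young replicate 3. That on chromosome 9 at 27287601 to 27294000, with 3000, 4600 and 4000 bp, was left out for 200 bp too. For 400 bp, the chromosome 4 region at 85695001 to 85704600 and the chromosome 12 region at 27856601 to 27866800 were left out, and for 600 bp the chromosome 9 region at 112993401 to 113014000. Of the 1683 regions in all 3 old and 1 young list, 60 had at most 1 kb of young coverage. Young replicate 3 was the young list that held 1446 of them and young replicate 2 held the other 237.

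**Figure D3:**
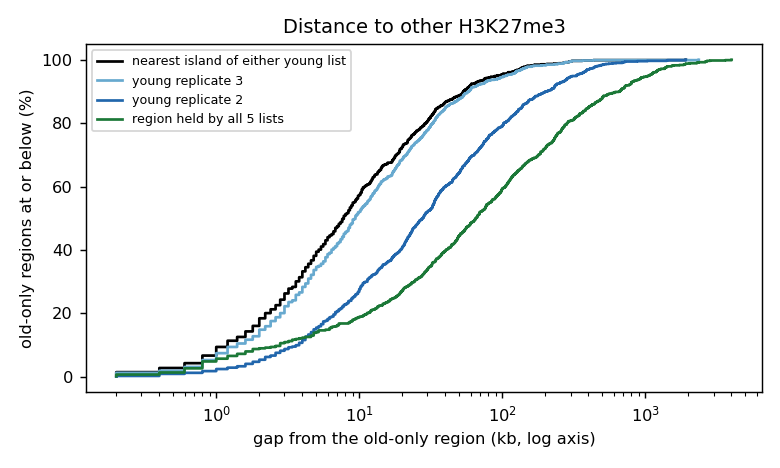
Cumulative share (percent) of the 918 old-only regions by the gap (kb, log axis) to the nearest H3K27me3 island of young replicate 2, of young replicate 3 or of either, and to the nearest region held by all 5 lists. The curve for either young list passes 39.4% at 5 kb.

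H3K27me3 was also more frequent around old-only regions in the old lists. Averaged over positions 20 to 50 kb from the centre, on both sides, islands of old replicates 1, 2 and 3 covered 15.89, 18.02 and 17.80% of the regions, and those of young replicates 2 and 3 covered 8.57 and 13.6%. Around young-only regions the order was different, with 11.4, 12.4 and 12.7% in the old lists and 13.8 and 19.5% in the young ones. The values of these 3 old and 2 young lists did not overlap around old-only or around young-only regions. No such values were computed around all merged regions or the other sets, so the non-overlap has no background to be set against. Young replicate 1 was at 3.64 and 4.65%. These are the lists that chose the regions, so the values are given without a test. Another old-only region also lay within 50 kb of 173 old-only regions (18.8%). The flanks thus hold some regions that the rule itself fixed as old and not young, and these were not taken out.

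The old-only regions were spread over chromosomes 1 to 19 and X. Chromosomes 7, 8 and 5 held the most, 83, 82 and 77. As a share of the regions that all 3 old lists held on a chromosome, the old-only regions made up 10.7% over the genome, from 6.29% on chromosome 11 and 6.51% on chromosome 15 to 16.3% on chromosome 19. On chromosome 11 this was 45 of 715 regions and on chromosome 19 it was 29 of 178. The counterpart, young-only regions among those that both young lists held, was 9.48% on chromosome 11, 12.96% on chromosome 15 and 13.7% on chromosome 19.

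Another old-only region lay within 50 kb of 173 old-only regions (18.8%) and within 1 Mb of 644 (70.2%), with a median gap of 360400 bp to the next. These shares were not computed for the other sets, so whether old-only regions are grouped more than those was not tested. The densest group within 1 Mb lay on chromosome 5 at 127868601 to 128830800 and held 11 old-only regions over 962 kb, among them the region with the largest mean covered length and the one with the highest lowest-of-3 percentile. Their mean covered length in old libraries ran from 2933 to 18067 bp. The same stretch held 14 regions of all 5 lists, 8 regions of all 3 old and 1 young list and no young-only region. It held 2 H3K4me3 regions common to the 4 H3K4me3 libraries and 5 common H3K36me3 regions, which are those in at least 3 of 5 libraries. The stretch thus had H3K27me3 at both ages and further regions in the old lists.

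The next densest groups lay on chromosomes 8 and 1. On chromosome 8 at 114614001 to 115058800, 9 old-only regions with mean covered lengths of 3067 to 6933 bp lay over 445 kb, beside 8 regions of all 3 old and 1 young list and 2 of all 5. No common H3K4me3 or H3K36me3 region lay in this stretch. On chromosome 1 at 122176201 to 123040600, 8 old-only regions with mean covered lengths of 3600 to 7600 bp lay over 864 kb, beside 11 regions of all 5 lists, 8 of all 3 old and 1 young list, 1 young-only region, 2 common H3K4me3 regions and 0 common H3K36me3 regions.

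H3K4me3 was the first measure that the choice of regions did not use, and few old-only regions had it. An H3K4me3 peak touched 27 and 26 of the 918 regions in young replicates 7 and 8 (2.94 and 2.83%) and 26 and 37 in old replicates 7 and 8 (2.83 and 4.03%). Over all merged regions, which are shorter, the shares in the same 4 libraries were 4.03, 3.87, 4.42 and 4.65%, near those of old-only regions. The shares of young-only regions touched were 12.2, 12.1, 13.2 and 13.1%. Those of regions in all 3 old and 1 young list were 6.00, 5.41, 6.30 and 7.37%, and those of regions in all 5 lists were 30.1, 28.8, 33.8 and 34.7%. Because the sets differ in length, H3K4me3 was also expressed as bp under peaks per kb of region. This came to 3.10 ± 0.492 bp per kb in old-only regions and 36.8 ± 2.92 in young-only regions (SD over 4 libraries). It was 5.26 ± 0.702 in regions of all 3 old and 1 young list and 19.5 ± 2.75 in regions of all 5 lists.

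The density of H3K4me3 was lower in old-only regions than in each of these sets in 4 of 4 libraries. The difference from young-only regions was -33.7 bp per kb on average, from -36.9 to -30.9. That from regions in all 3 old and 1 young list was -2.16, from -2.60 to -1.56. Each had an exact sign-flip permutation p of 0.125 (two-sided, n = 4), the smallest that 4 libraries allow, and 0.15 after Benjamini-Hochberg adjustment over 6 such comparisons, so none could pass 0.05. The comparison was added after the shares had been seen, and the old-only density rests on the 26 to 37 regions touched in each library. Over all merged regions the density was 9.07 to 12.2 bp per kb in the 4 libraries. By touch alone the old-only regions were near the background, with 41 (4.47%) touched in any library against 5.12% of all merged regions, which are shorter.

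At the centre of an old-only region an H3K4me3 peak lay in 0.327 to 0.436% of regions in the 4 libraries, and at the centre of a young-only region in 6.36 to 7.25%. H3K4me3 regions held by all 4 libraries lay a median of 118 kb from old-only regions, 97.6 kb from young-only regions and 42.0 kb from regions in all 5 lists, against 150 kb for all merged regions. No such H3K4me3 region lay within 250 kb of the centre of 27.7% of the old-only regions, 21.5% of the young-only regions and 36.1% of all merged regions. The old-only regions were thus farther from common H3K4me3 than both comparison sets and nearer than the merged regions at large. These distances are a description of positions and were not tested.

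**Figure D4:**
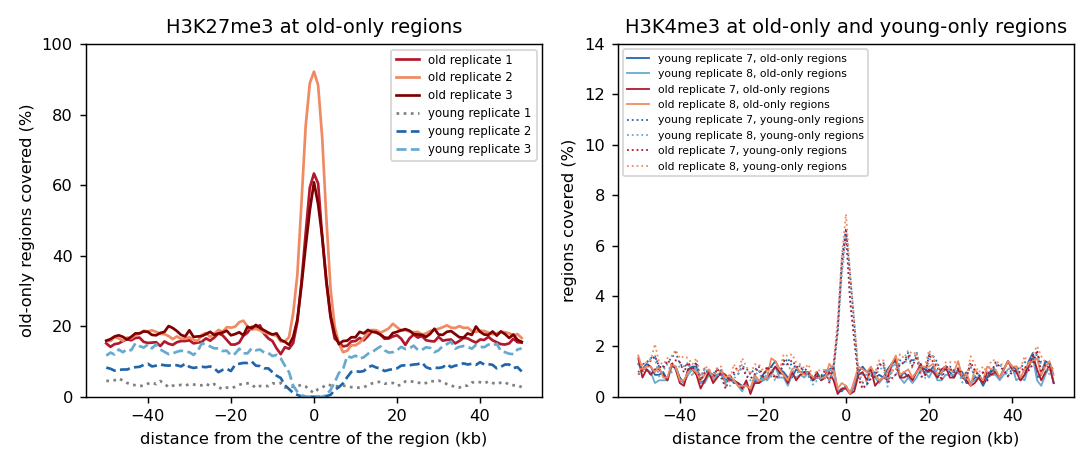
Share of regions (percent) under islands or peaks at each distance (kb, steps of 1) from the region's centre: left, the 6 H3K27me3 lists at old-only regions; right, the 4 H3K4me3 lists at old-only (solid) and young-only (dotted) regions. H3K4me3 rises to between 6.36 and 7.25% at the centre of young-only regions and is at or below 0.436% at the centre of old-only regions.

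The share of old-only regions touched by H3K4me3 overlapped between the ages. It was 3.43 ± 0.847% in old and 2.89 ± 0.077% in young libraries (SD, n = 2 each), a difference of 0.545 percentage points with an exact permutation p of 1.0 (two-sided), where 2 against 2 libraries cannot go below 0.33. For H3K4me3 only title number 18 occurs at both ages, and its shares were 2.83% in old and 2.94% in young, and without old replicate 8 the difference was -0.0545. With peaks counted at wider distances, both old libraries were above both young ones: within 20 kb the shares were 21.02 and 22.5% in old and 19.4 and 18.7% in young libraries, a difference of 2.72 percentage points at the smallest possible exact p of 0.33. All merged regions moved the same way at that distance, with 16.4 and 17.5% in old and 15.1 and 14.9% in young libraries. The old lists also held more H3K4me3 peaks, 18675 and 19923 against 16314 and 16258 in the young ones. With equal numbers of peaks per list the difference was computed for touch only, where it was 0. The share in old-only minus that in young-only regions was -9.73 ± 0.904 in old and -9.23 ± 0.0201 percentage points in young libraries (SD, n = 2 each). Its exact permutation p was 1.0 as well. Over the 4 share tests on the other marks all adjusted p-values were 1.0.

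Covered length of H3K4me3 was tested with limma over the 3219 merged H3K27me3 regions that at least 2 H3K4me3 libraries covered, 31 of which were old-only. No region, 0 of 3219 (0%), passed the adjusted threshold of 0.05 by limma, with 355 at an unadjusted p under 0.05, and no other tool was run. More H3K4me3 in old libraries at an unadjusted p under 0.05 was found in 3 of the 31 old-only regions, against 9.63% of all tested regions. Less H3K4me3 at that level was found in 0 of 31, against 1.4%. The median log2 change was -0.03 over the 31 regions and 0.06 over all tested regions.

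Those 3 regions, and a further one, were the old-only regions with H3K4me3 in both old and neither young library. This pattern was seen in 0.274% of all merged regions and in 4 of 918 old-only regions (0.436%), and the reverse, H3K4me3 in both young and neither old library, in 0.025% and in 0 of 918. The first lay on chromosome 7 at 38145401 to 38153800, with 652 and 937 bp of H3K4me3 in old replicates 7 and 8 and 0 bp in young ones. Its log2 change was 2.30 (SE 0.326) with a limma adjusted p of 0.105. The second, on chromosome 13 at 52623001 to 52626600, had 421 and 512 bp and an adjusted p of 0.106 by limma. The third, on chromosome 17 at 21886601 to 21902400, had 388 and 665 bp and an adjusted p of 0.132 by limma. In these 3 the old and young H3K4me3 values did not overlap, and none passed the test.

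H3K27me3 over the same regions differed in extent. The chromosome 7 region held 2000, 6400 and 4200 bp in old replicates 1, 2 and 3, with no base under all 3 lists and an island of young replicate 2 or 3 at 800 bp. The chromosome 13 region held 2800, 3600 and 1400 bp and was 126400 bp from any island of young replicates 2 and 3. The chromosome 17 region held 11000, 9800 and 10400 bp, the most of the group, and young replicate 1 covered 200 bp of it. In the fourth, on chromosome 8 at 11488001 to 11497000, the old H3K4me3 libraries reached in by only 105 and 65 bp, from an H3K4me3 region that all 4 libraries held. The region on chromosome 7 at 19925601 to 19928200 went the other way, with 847 and 832 bp of H3K4me3 in young and 0 and 571 bp in old libraries, and a limma adjusted p of 0.750.

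H3K4me3 of both ages lay in 19 old-only regions (2.07%, against 3.40% of all merged regions, by touch in all 4 libraries). The longest by mean H3K4me3 length was on chromosome X at 154475801 to 154482400, with 2029 and 1940 bp in young and 1627 and 1898 bp in old libraries. It held 1200, 6600 and 2000 bp of H3K27me3 in old replicates 1, 2 and 3. The next, on chromosome 4 at 3858001 to 3865400, had 1784 and 1834 bp of H3K4me3 in young and 1683 and 1862 bp in old libraries, and 4800, 7200 and 3600 bp of H3K27me3 in the old ones. The third, on chromosome 10 at 125389201 to 125405600, had 1825 and 1834 bp in young and 1640 and 1758 bp in old libraries, and an H3K27me3 island of old replicate 2 over its whole 16400 bp. The young and old H3K4me3 values overlapped in the chromosome 4 region. In the chromosome X and chromosome 10 regions both old values lay below both young ones, with limma adjusted p of 0.789 and 0.827. How often this order occurred over all tested regions was not counted, so no loss of H3K4me3 is read from it. In these 19 regions H3K4me3 took up a median of 11.3% of the length. Of the 103 old-only regions with no H3K27me3 island of young replicates 2 and 3 within 50 kb, 16 (15.5%) had H3K4me3 in at least 1 library. The counts were 12 of 362 (3.31%) with such an island within 5 kb and 13 of 453 (2.87%) between. Young replicate 1 had an island in 7 of the 103. The contrast in H3K4me3 between these distances was not tested, and the gap is measured to lists that chose the regions. Such shares by distance were not computed for all merged regions or the other sets, so it has no background.

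**Figure D5:**
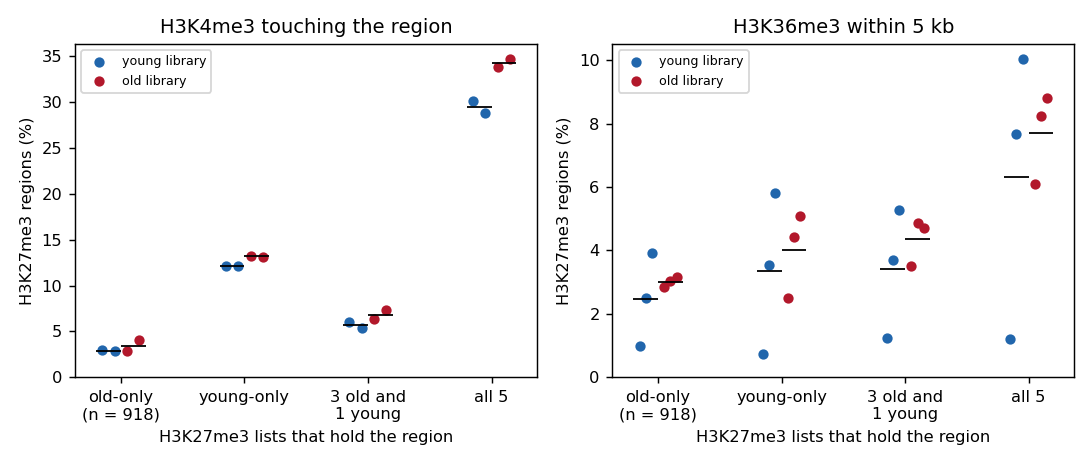
Share of H3K27me3 regions (percent) touched by an H3K4me3 peak (left) or with an H3K36me3 peak within 5 kb (right), by the H3K27me3 lists that hold the region; points are libraries, lines the mean of each age. Old-only regions lie at 2.83 to 4.03% for H3K4me3, below the other 3 sets.

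H3K36me3 was rare over old-only regions, at a share near that over H3K27me3 regions at large. Young replicates 4, 5 and 6 had a peak over 4, 3 and 7 of the 918 regions, while old replicates 4, 5 and 6 had one over 8, 7 and 6. In any library 18 regions (1.96%) were touched, against 1.78% of all merged regions, and only 1 of these also had H3K4me3. The density was 1.31 ± 0.794 bp per kb in old-only and 3.70 ± 2.09 in young-only regions (SD over 6 libraries), lower in 5 of 6 libraries, with an exact sign-flip permutation p of 0.0625 and 0.15 after adjustment. In regions of all 3 old and 1 young list it was 0.486 ± 0.288, lower than in old-only regions in 5 of 6 libraries, with the same p-values. In regions of all 5 lists it was 1.30 ± 0.644, an exact p of 1.0 with n = 6. Old-only regions were lower than these in 5 of 6 libraries and 0.903 bp per kb higher in old replicate 4. All these old-only densities rest on the 3 to 8 regions touched in each library. The sign flips measure the spread between libraries, not between regions. Neither mark touched 860 of the old-only regions (93.7%).

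Within 5 kb, H3K36me3 peaks were present at 0.980, 2.51 and 3.92% of old-only regions in the 3 young libraries (replicates 4, 5 and 6). The old libraries were at 2.83, 3.05 and 3.16%, inside the range of the young ones. Age means came to 2.47 ± 1.47% and 3.01 ± 0.166% (SD, n = 3 each), with an exact permutation p of 0.7 where 0.1 is the smallest possible. The lowest value belonged to young replicate 4, whose list held 6399 peaks against 39362 to 84437 in the others, and without it the difference turned from 0.545 to -0.200 percentage points. Within title numbers 16 and 18 the old library was 1.85 and 0.654 percentage points higher, but the young library of number 16 is this same young replicate 4. The difference between old-only and young-only shares was -0.985 ± 1.18 in old and -0.886 ± 1.07 percentage points in young libraries (SD, n = 3 each, exact permutation p of 0.9).

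For H3K36me3 length, 0 of 646 merged regions (0%) passed the adjusted threshold by limma, with 20 at an unadjusted p under 0.05, all higher in old libraries (3.1%, and 0 of the old-only regions), and no other tool was run. The median log2 change of all tested regions was 0.70, and it was 0.15 without young replicate 4 and 1.54 without young replicate 6. With each library centred on its median it was 0.40. Only 7 old-only regions could be tested and all 7 had more H3K36me3 in old libraries on average, though without young replicate 4, or with centred libraries, 4 of 7 did. Without young replicate 5 this held for 5 of 7, without old replicate 5 for 5 of 6 and without old replicate 6 for 4 of 5. How many of the 646 tested regions were higher in old libraries was not counted, so these counts have no background to be set against. The smallest p among the 7 old-only regions was at the region on chromosome 5 at 105523001 to 105533600. There H3K36me3 covered 0, 737 and 4684 bp in young and 6174, 5998 and 3914 bp in old replicates 4, 5 and 6, and the ages overlapped (log2 change 2.49, SE 1.13, limma adjusted p = 0.668). H3K27me3 covered 1400, 9600 and 5200 bp of it in the old libraries. On chromosome 6 at 56050601 to 56055400, H3K36me3 was at 0 bp in all young libraries and at 1654, 0 and 1012 bp in old ones, with the same adjusted p by limma. This was the only old-only region with the mark in at least 2 old and no young library (0.109%, against 0.0877% of all merged regions), and none showed the reverse (0.032% of all merged regions). The region on chromosome 2 at 157636001 to 157639400 is 3400 bp long, and H3K36me3 covered 0, 1938 and 3254 bp of it in young and 3142, 3356 and 3400 bp in old libraries, so that the ages overlapped. On chromosome 11, the region at 11907401 to 11916800 had 0, 0 and 1883 bp in young and 4471, 903 and 1380 bp in old libraries. Also on chromosome 11, the region at 67892801 to 67905600 had H3K36me3 in 1 library of each age, 650 bp in young replicate 6 and 1236 bp in old replicate 5.

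The name of the set rests on 2 young lists, and the third, young replicate 1, held an island over 79 of the 918 regions (8.61%). Its shares in the other sets were 14.8% of young-only regions, 9.45% of regions in all 3 old and 1 young list, 16.7% of regions in all 5 lists and 11.1% of all merged regions. In the 79 regions it covered 200 to 12800 bp with a median of 2200 bp, and at least 50% of the region in 10. It covered the whole 5200 bp of the region on chromosome 2 at 159562401 to 159567600, where the old libraries covered 3800, 3800 and 2000 bp. With all 3 young lists in the rule there were 835 old-only regions.

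How many regions were old-only depended on how islands were kept. With only islands at or above the median score of their list there were 391, of which islands overlapped 159 of the 918 (17.3%). With the 17752 highest-scoring islands of each list there were 594, overlapping 287 (31.3%). Requiring a young island to be more than 1 kb away left 832, requiring 1 kb of coverage for a library to hold a region gave 914, and joining islands up to 600 bp apart gave 873. Without old replicate 1, 2 or 3 the counts were 1796, 3930 and 1648, and without young replicate 2 or 3 they were 1201 and 2455. Of the 918 regions, 101 (11.0%) overlapped an old-only region in each of the settings that left out no library. These had a median length of 12000 bp and a median of 7733 bp of mean old coverage, against 7400 and 4200 bp for the other 817. They included the 2 longest-covered regions on chromosome 5 and 5 more of the 10 named first: those on chromosomes 8, 11 and 3 and both on chromosome 13.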

How the data were processed

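The tools named per the submitters' processing notes are CASAVA 1.4, SICER and MACS, and the build is mm9. Not given in the sources used here were the aligner, control libraries, thresholds, read depth and versions of SICER and MACS. The authors deposited 1 peak list per library, with a score per island or peak whose unit is not stated. H3K27me3 lists have the layout of SICER islands on a grid of 200 bp, and the others that of MACS peaks.

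The members and lists were chosen with earlier results of these data known. The end of each SICER island was extended by 1 bp, islands were merged, and a library held a region with at least 1 bp covered. Covered lengths, as log2(bp + 200), were fitted in limma 3.58.1 (R 4.3.3) for regions covered in at least 2 libraries of the mark, with trend, empirical Bayes moderation and Benjamini-Hochberg adjustment (threshold 0.05). This fit was tested on simulated data. Shares were compared over libraries with exact permutation tests. Common H3K4me3 regions are the 14489 in all 4 libraries, and common H3K36me3 regions the 32959 in at least 3 of 5 libraries (without young replicate 4). Python 3.11.15, numpy 2.4.6 and pandas 2.3.3 were used.

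Regions named are the 10 with the largest mean old coverage, those leading by score percentile or limma p, those with H3K4me3 or H3K36me3 at a single age, the densest groups and those nearest the rule's limit. Regions with H3K4me3 in all 4 libraries, the most isolated region and the examples of shared bases were added after their values were seen. The only annotation and sequences at hand are on GRCm38, and coordinates were not converted, so no gene is named and no sequence printed. Alternatives were other distances, scores, numbers of peaks, pseudocounts, filters and scalings, the replicate block and leaving out each library.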

Additional observations from a re-analysis of the deposited data

How the results depend on the processing

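The count of 918 old-only regions became 391 with islands at or above the list median and 594 with equal numbers of islands per list. It stayed between 832 and 914 in the other 4 settings with all 5 libraries. Leaving out 1 library gave 1201 to 3930 regions, the most without old replicate 2, with 1796 without old replicate 1, 1648 without old replicate 3 and 2455 without young replicate 3. The share tests could not reach 0.05 in any setting. Their differences in percentage points moved as follows. For H3K4me3 touching, 0.545 became 0.708, 1.09 and 2.72 within 1, 5 and 20 kb, 0 with equal numbers of peaks and -0.0545 with peaks at or above the list median, and ranged from -0.0545 (without old replicate 8) to 1.14 when leaving out 1 library. Its difference between old-only and young-only regions, -0.502, became 0.282 with equal numbers of peaks and ranged from -1.14 to 0.137 (without old replicate 7). For H3K36me3 within 5 kb, 0.545 ranged from -0.200 (without young replicate 4) to 1.27 when leaving out 1 library, and was 0.254 by touch, 0.182 within 1 kb, 1.85 within 20 kb and 0 with equal numbers of peaks. Its difference between the sets, -0.0995, became 0.357 with peaks at or above the list median and 0.242 with equal numbers, and ranged from -0.760 to 0.471. The cause was not tested. Limma called 1 of 646 H3K36me3 regions with centred libraries, and 0 of the 7 old-only regions tested there. With peaks at or above the list median it called 98 of 908 H3K4me3 regions, and 0 of the 10 old-only regions tested. So few old-only regions were tested that their 0 calls cannot be told from the share over all regions. In the other settings and when leaving out each library limma called 0. The fit without a filter could not be fitted. With a replicate block limma called 0 regions for both marks, and the share differences had the same means as without it. Whether same-numbered libraries share more than a number is not given in the labels. The correlations of their deviations from the age means were 0.167, -0.216 and 0.137 for H3K36me3 and -0.00858 for H3K4me3. With 2 libraries per age the deviations are exact opposites, and with 3 they are tied to each other. These correlations therefore cannot decide whether libraries are paired. Depth is unknown, so absence from a list limits what can be said of absence in cells.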
